A study of Mus musculus with 8 samples.

Results

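The 40 genes described here act in G2 and mitosis, from the kinases and cyclins that start division to the spindle, the centromere and the condensing chromosome. They are a list of names, with no threshold on a measured value. All 40 matched 1 identifier each among the 48709 gene identifiers of the count files, through a mouse GRCm38 annotation, and all 40 passed the low-count filter of the test. The question asked was whether RNA of these genes differed between mouse blood stem and progenitor cells cultured with malonyl-CoA, the activated precursor used in fatty acid synthesis, and the same cells cultured without it. The 2 groups were 4 libraries from cultures with 100 µM malonyl-CoA and 4 libraries from cultures with none, numbered 1, 3, 4 and 5 in each group. Both groups were C57Bl/6J cells sorted as Lin-Sca1+cKit+ (lineage-marker negative, positive for Sca1 and cKit), seeded at 10000 cells a well and grown for 7 days without serum, on stem cell factor (100 ng/ml) and Flt3 ligand (2 ng/ml). The labels name no genetic change in either group. The labels call the libraries biological replicates without saying whether a number stands for an animal, a pool or a culture, and they give no age of the animals. P-values therefore measure the spread between these samples.

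Cells enter mitosis when cyclin B and Cdk1 become active, and the spindle checkpoint then holds them until every chromosome is attached to the spindle. The anaphase-promoting complex ends mitosis by marking cyclins and securin for destruction. Most genes of this group are transcribed late in the cycle, under Foxm1 and the B-Myb-MuvB complex, through a short promoter element called the cell cycle genes homology region (CHR), and a quiescent blood stem cell expresses little of them.

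The CHR is the sequence that these genes are known to share, so promoter windows are given here ahead of the expression values. Windows from 250 bases before to 50 bases after the start, from RefSeq on GRCm38.p6, were at hand for 32 of the 40 genes; Tpx2, Kif20a, Cdc25c, Incenp, Ccna2, Foxm1, Aurkb and Smc4 had no window. The letters TTTGAA or TTCGAA, on either strand, occurred in the windows of 26 of these 32 genes, or 81.2%, against 21.7% of 27025 mouse genes with a window. Within 50 bases each side of the start the shares were 71.9% for the mitotic genes and 6.12% for all genes. CCAAT on either strand, the letters of the NF-Y box, was in 25 windows (78.1%) against 41.1% of all genes, and matches of the 2 motifs may share letters. GCGGGAA, 1 spelling of an E2F site, was in 1 window (3.12%) against 5.29% of all genes. Birc5, Ccnb1, Cenpe, Mad2l1, Nusap1 and Pttg1 held none of the CHR letters in this window. A match is a description of the letters and shows no binding. The windows of 4 genes are given because they share the motif while their RNA levels behaved differently: Mki67 and Cenpf ranged widely between libraries, and Cdk1 and Ccnb2 had a highest library only 1.33 and 1.28 times the lowest. All 4 lie on the minus strand and are written 5′ to 3′, with the CHR letters in capitals. They are Mki67 at chr7:135716330-135716629, Cenpf at chr1:189688037-189688336, Cdk1 at chr10:69352863-69353162 and Ccnb2 at chr9:70421505-70421804.
Mki67: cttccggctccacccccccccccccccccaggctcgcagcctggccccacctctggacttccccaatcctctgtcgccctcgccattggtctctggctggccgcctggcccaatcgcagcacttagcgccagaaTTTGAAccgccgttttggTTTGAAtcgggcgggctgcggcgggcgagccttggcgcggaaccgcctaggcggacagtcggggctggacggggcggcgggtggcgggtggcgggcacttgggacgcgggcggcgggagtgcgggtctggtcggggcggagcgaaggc
Cenpf: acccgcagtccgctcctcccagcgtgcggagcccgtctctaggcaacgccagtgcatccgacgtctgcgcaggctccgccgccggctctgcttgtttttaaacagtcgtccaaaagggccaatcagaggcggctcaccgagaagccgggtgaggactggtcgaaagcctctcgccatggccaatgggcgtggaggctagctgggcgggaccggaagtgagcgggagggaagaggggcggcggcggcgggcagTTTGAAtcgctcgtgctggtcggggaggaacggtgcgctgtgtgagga
Cdk1: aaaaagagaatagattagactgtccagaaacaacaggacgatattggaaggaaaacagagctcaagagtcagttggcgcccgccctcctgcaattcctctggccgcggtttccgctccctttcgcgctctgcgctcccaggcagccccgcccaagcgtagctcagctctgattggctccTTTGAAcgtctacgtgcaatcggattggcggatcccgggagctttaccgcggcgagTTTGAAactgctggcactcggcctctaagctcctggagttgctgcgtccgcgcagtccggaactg
Ccnb2: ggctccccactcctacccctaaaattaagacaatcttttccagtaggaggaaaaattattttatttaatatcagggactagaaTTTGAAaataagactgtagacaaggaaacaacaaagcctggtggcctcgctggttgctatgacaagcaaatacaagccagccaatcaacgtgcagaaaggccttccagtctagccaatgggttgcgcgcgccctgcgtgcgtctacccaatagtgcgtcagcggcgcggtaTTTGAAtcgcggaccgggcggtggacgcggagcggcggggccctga
Counted with the RefSeq start base as 0, the capitals begin at -116 and -98 in Mki67, at 2 in Cenpf, at -71 and -15 in Cdk1 and at -167 and 4 in Ccnb2.

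The libraries held between 17492085 and 22079844 counts assigned to genes. Libraries numbered 4 stood apart in both groups: the first principal component of log2 levels, with 48.9% of the variance, placed malonyl-CoA 4 at 63.3 and control 4 at 25.3. Malonyl-CoA 4 also had the largest share of reads in no gene, 2.94%, against 1.19% to 1.34% in the other malonyl-CoA libraries and 1.11% to 1.56% in controls. Markers of stem and progenitor cells (Kit, Cd34 and 7 others) summed to 1097 to 1154 CPM with malonyl-CoA and 1187 to 1303 CPM in controls, with no overlap. Granulocyte precursor markers summed to 13670 to 17490 CPM with malonyl-CoA and 13450 to 21320 CPM in controls. Monocyte markers summed to 1522 to 1921 CPM with malonyl-CoA and 1454 to 1909 CPM in controls, and megakaryocyte markers to 669 to 996 CPM with malonyl-CoA and 875 to 1083 CPM in controls. Mast cell markers did not overlap, at 731 to 846 CPM with malonyl-CoA and 885 to 1058 CPM in controls. Of single genes, 2.93% had all malonyl-CoA libraries below all controls. A list sum mostly follows its most abundant genes, so these sums give no count of cells. Erythroid, B cell, T cell and stromal lists each stayed at or below 48.1 CPM in every library, and Alas2, Cd3e, Col3a1 and Lum were at 0 in all 8. The part of these cell types in the values below was not tested.

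The 40 genes did not separate the 2 groups. Levels are given as CPM, counts scaled to library size, with TMM factors, which correct for library composition. By edgeR's quasi-likelihood test with Benjamini-Hochberg adjustment over 12696 genes, 0 of the 40 genes passed an adjusted p of 0.05 in either direction, against 0.0% of all genes higher and 0.0% lower. At an unadjusted p under 0.05 the count was also 0 of 40, against 5.43% of all genes higher and 4.1% lower. DESeq2 and limma-voom also gave 0 of the 40 an adjusted p under 0.05, with no p for Mki67 in DESeq2. Over all genes DESeq2 called 65 higher and 17 lower of 21783 tested, and limma-voom called 0 of 12696. With the replicate number as a block in edgeR the count stayed at 0 of 40, against 1.13% of all genes higher and 0.221% lower. Fitted log2 fold changes (malonyl-CoA minus control) were above 0 for 26 genes and below 0 for 14, against 53.4% of all genes above 0. Their median was 0.12, against 0.023 over all genes, with a range from -0.18 in Ect2 to 1.46 in Mki67. Without malonyl-CoA 4, 19 were above 0 and 21 below, with a median of -0.0078, against 46.4% of all genes above 0 and a median of -0.019. That fit keeps control 4, which stood apart on the same side as malonyl-CoA 4. Without both libraries numbered 4, 23 were above 0 and 17 below, with a median of 0.024. Over all genes 48.8% were then above 0, with a median of -0.0095. In none of the 40 did the 4 malonyl-CoA libraries lie all above or all below the controls, against 3.21% of all genes above and 2.93% below. Counts behind single values ran from 88 for Cenpe in control 1 to 22683 for Top2a in malonyl-CoA 4. In bulk RNA, a change in the share of dividing cells and a change in mitotic RNA per cell cannot be told apart.

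**Figure D1:**
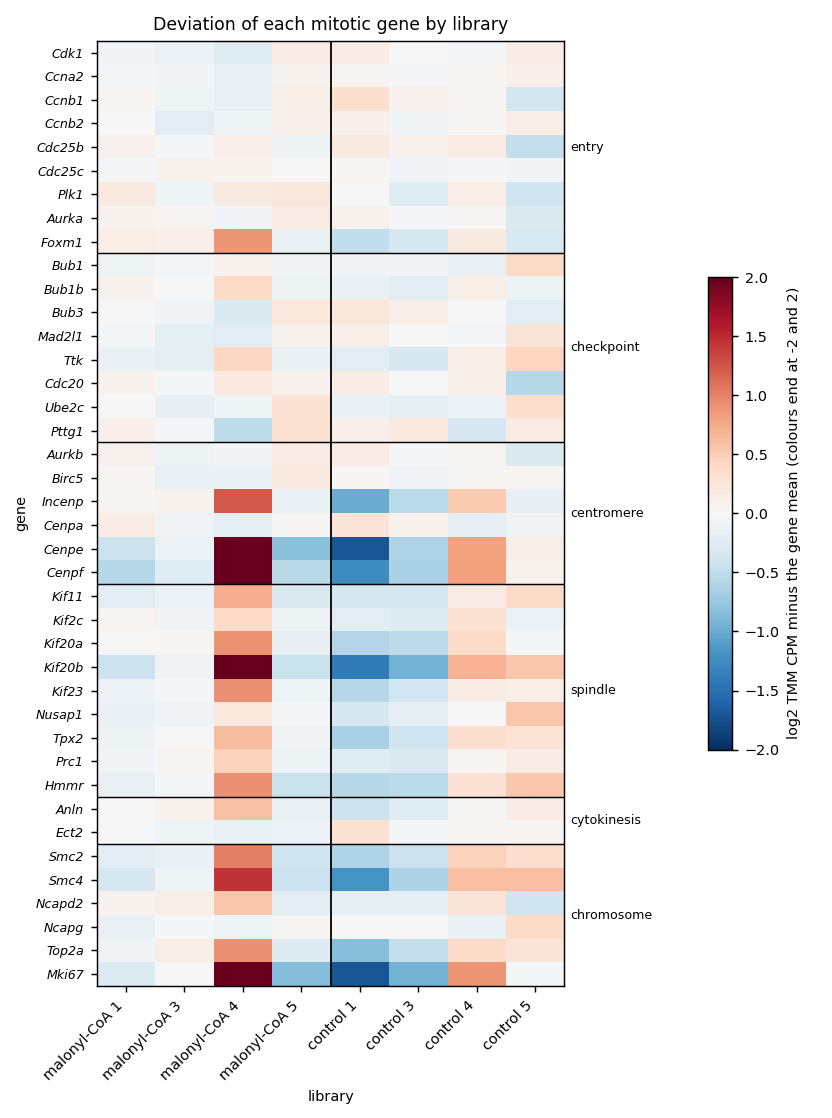
Log2 TMM CPM of each of the 40 genes minus its mean over the 8 libraries (colour, capped at both ends of the scale), with malonyl-CoA libraries left of controls and genes grouped by role. The darkest red cells sit in malonyl-CoA 4, in Mki67, Cenpe, Cenpf and Kif20b, and Mki67 and Cenpe are deepest blue in control 1.

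Among the genes that start mitosis, the catalytic core varied little between libraries. Cdk1, the kinase that drives entry into mitosis (ENSMUSG00000019942, chr10:69335146-69352938, minus strand), had 223, 214, 195 and 259 CPM in malonyl-CoA 1, 3, 4 and 5, against 255, 229, 226 and 258 CPM in controls 1, 3, 4 and 5. Its lowest value was in malonyl-CoA 4 and its highest in malonyl-CoA 5, and the groups overlapped. Its fold change was -0.12 ± 0.12 on the log2 scale (SE; edgeR adjusted p = 0.651). Ccnb1, the cyclin B partner of Cdk1, had 104, 95.9, 91.2 and 109.7 CPM with malonyl-CoA and 126, 108, 104 and 78.9 CPM in controls, where control 1 was the highest and control 5 the lowest of the 8. Ccnb2, another B cyclin, averaged 130 ± 11.8 CPM with malonyl-CoA and 139 ± 8.05 CPM in controls (SD, n = 4 each), and Ccna2, the cyclin A of S phase and early mitosis, 374 ± 24.4 CPM with malonyl-CoA and 396 ± 15.3 CPM in controls. Cdk1 and these 3 cyclins all had a log2 fold change below 0, between -0.12 and -0.057, each about the size of its SE or smaller.

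The mitotic kinases besides Cdk1 showed no split of the groups either. Plk1, the polo kinase that matures centrosomes and triggers Cdk1, had 101, 83.6, 101 and 105 CPM in malonyl-CoA 1, 3, 4 and 5, against 88.7, 75.5, 98.01 and 67.4 CPM in controls. Malonyl-CoA 3 lay below controls 1 and 4, so the groups overlapped (log2 fold change 0.24 ± 0.14, edgeR adjusted p = 0.525). Aurka, the spindle-pole kinase, had 79.4, 78.7, 72.6 and 85.1 CPM with malonyl-CoA and 80.4, 73.5, 76.6 and 61.6 CPM in controls, with only control 5 outside the malonyl-CoA range on the low side. The phosphatases that activate Cdk1 were level: Cdc25b averaged 36.1 ± 2.41 CPM with malonyl-CoA and 36.0 ± 7.06 CPM in controls, and Cdc25c 16.8 ± 0.561 CPM with malonyl-CoA and 16.2 ± 0.547 CPM in controls. Cdc25c had the narrowest spread of the 40, its highest library at 1.09 times its lowest.

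Foxm1, the forkhead factor that activates the late-cycle genes (ENSMUSG00000001517, chr6:128362967-128376146, plus strand), had the smallest p of the 40. It had 61.9, 60.2, 104 and 50.7 CPM in malonyl-CoA 1, 3, 4 and 5, against 39.9, 44.3, 63.7 and 45.4 CPM in controls. Malonyl-CoA 4 was the highest library, and control 4 lay above malonyl-CoA 1, 3 and 5, which is where the groups overlapped. On the log2 scale its fold change was 0.52 ± 0.24 (SE), with an unadjusted p of 0.053 and an adjusted p of 0.515 by edgeR. Without malonyl-CoA 4 it was 0.24 ± 0.17 (edgeR unadjusted p = 0.184). Its exons share a strand with those of Tex52 and Gm44596, so reads there could be split between genes or set aside.

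Genes of the spindle checkpoint and of anaphase control gave fold changes on both sides of 0: 3 above and 5 below, with a median of -0.045. Without malonyl-CoA 4 it was 5 above and 3 below, with a median of 0.027. Without both libraries numbered 4 it was 3 above and 5 below, with a median of -0.025. Mad2l1, the checkpoint protein that blocks Cdc20, had 216.5, 197, 194 and 235 CPM with malonyl-CoA and 243, 226, 219 and 267 CPM in controls. Malonyl-CoA 5 exceeded controls 3 and 4, so the groups overlapped (log2 fold change -0.18 ± 0.11, edgeR adjusted p = 0.537). Bub1, a kinase of unattached kinetochores, had 117, 121.5, 131 and 120.6 CPM with malonyl-CoA and 120.6, 119, 112 and 163 CPM in controls, control 5 standing above the other 7 libraries. Bub1b and Bub3, its partners in the checkpoint, averaged 129 ± 19.6 and 214 ± 30.0 CPM with malonyl-CoA, against 114 ± 11.6 and 223 ± 29.0 CPM in controls (SD, n = 4 each).

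Cdc20, the activator of the anaphase-promoting complex, averaged 101 ± 6.24 CPM with malonyl-CoA and 92.0 ± 19.2 CPM in controls, where control 5 had 64.0 CPM and no other library was below 93.5 CPM. Ube2c, the ubiquitin-conjugating enzyme of that complex, had its 2 highest values in libraries numbered 5, with 148 CPM in malonyl-CoA 5 and 155 CPM in control 5 against 107 to 122 CPM in the other 6. Ttk, the kinase that recruits checkpoint proteins, averaged 36.8 ± 7.98 CPM with malonyl-CoA and 37.5 ± 9.17 CPM in controls. Pttg1, the securin that restrains separase, averaged 22.9 ± 5.05 CPM with malonyl-CoA and 23.8 ± 3.75 CPM in controls, and its lowest value in each group was in the library numbered 4, at 16.3 CPM with malonyl-CoA and 18.3 CPM in control.

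The chromosomal passenger complex did not vary as a unit. Incenp, its scaffold (chr19:9872296-9899551, minus strand), had 72.2, 75.3, 166 and 65.1 CPM in malonyl-CoA 1, 3, 4 and 5, against 35.7, 49.3, 102 and 63.4 CPM in controls. The libraries numbered 4 were the highest of each group, and control 4 lay above malonyl-CoA 1, 3 and 5 (log2 fold change 0.60 ± 0.38, edgeR adjusted p = 0.542). Without malonyl-CoA 4 the log2 fold change of Incenp was 0.17, and without control 4 it was 0.94. Aurkb, the kinase of the complex, had 161, 142, 146 and 171 CPM with malonyl-CoA and 169, 148, 158 and 124 CPM in controls. Birc5, or survivin, had 142, 128, 127 and 161 CPM with malonyl-CoA and 144, 134, 143 and 146 CPM in controls. Neither Aurkb nor Birc5 was highest in a library numbered 4, and the highest library was 1.37 and 1.26 times the lowest, against 4.66 times for Incenp.

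The large centromere proteins gave the widest ranges beside Mki67. Cenpe, the kinesin that carries chromosomes to the spindle equator (ENSMUSG00000045328, chr3:135212537-135273611, plus strand), had 12.2, 15.1, 113 and 9.22 CPM in malonyl-CoA 1, 3, 4 and 5, against 5.02, 10.8, 28.6 and 17.9 CPM in controls. Malonyl-CoA 4 was 9.32 times the mean of the other 3 malonyl-CoA libraries, and control 4 was 2.54 times the mean of the other 3 controls. Its log2 fold change of 1.26 had an SE of 0.83 (edgeR adjusted p = 0.547). It was -0.37 without malonyl-CoA 4 and 0.11 without both libraries numbered 4. Cenpf, a kinetochore protein, had 103 CPM in malonyl-CoA 4 and 13.5 to 16.9 CPM in the other malonyl-CoA libraries, against 35.5 CPM in control 4 and 8.44 to 21.2 CPM in the other controls. Its log2 fold change was 0.92 ± 0.72, or -0.42 without malonyl-CoA 4 and 0.043 without both libraries numbered 4. Cenpa, the centromeric histone, averaged 107 ± 10.4 CPM with malonyl-CoA and 111 ± 14.5 CPM in controls.

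**Figure D2:**
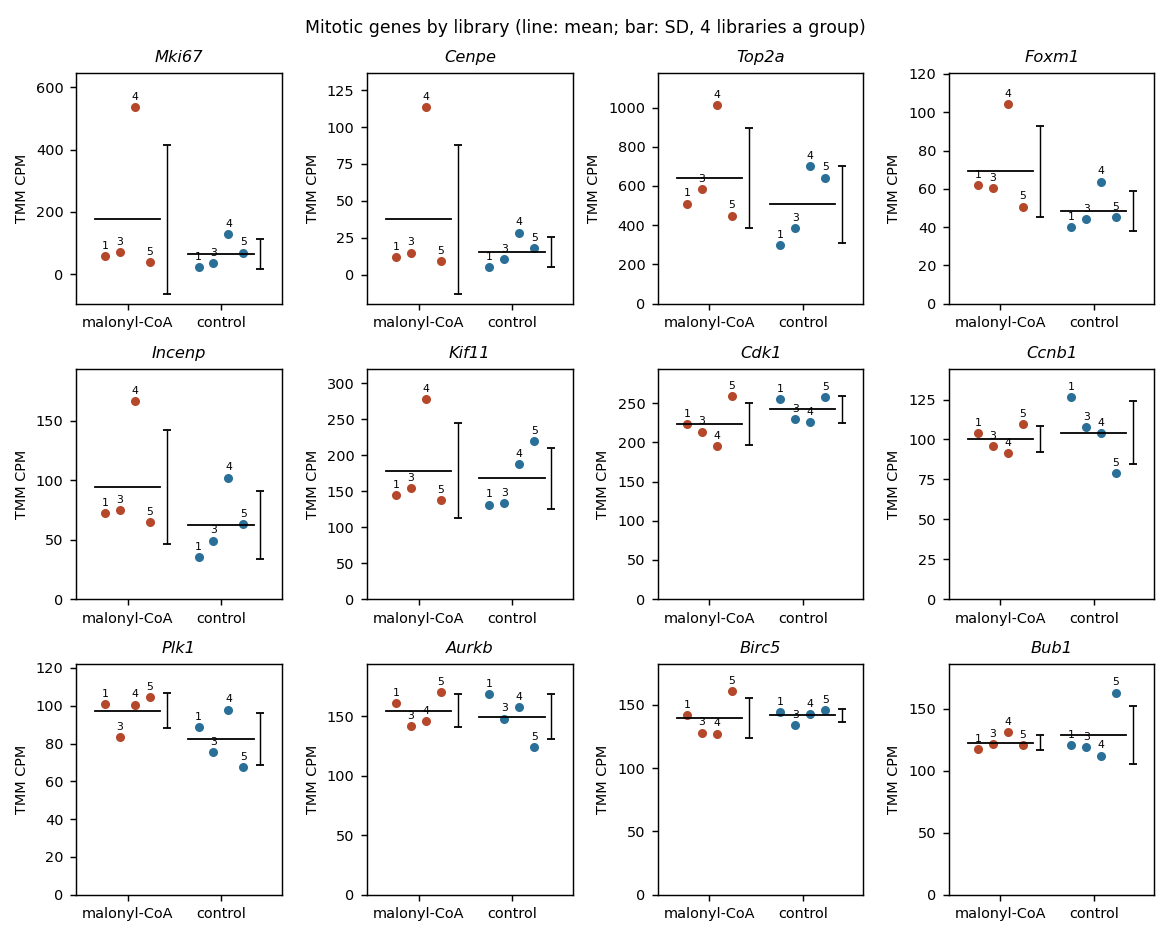
TMM CPM of 12 of the genes in each library (points, labelled with the replicate number), with malonyl-CoA left of control, the mean as a line and the SD as a bar (n = 4 each). In the panels of Mki67, Cenpe, Top2a, Foxm1, Incenp and Kif11 the top point is malonyl-CoA 4, at 536 CPM for Mki67, while the points of Cdk1, Aurkb and Birc5 lie within 1.37-fold of each other.

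Of the 9 spindle motors and bundlers, 8 had a log2 fold change above 0, with a median of 0.17. Malonyl-CoA 4 was above the other malonyl-CoA libraries in all 9. It was the highest of the 8 libraries for 31.4% of all genes. Without malonyl-CoA 4 only Kif2c, Kif20a, Kif23 and Prc1 stayed above 0 and 5 were below, with a median of -0.0099, and without both libraries numbered 4 there were 6 above 0, with a median of 0.068. Kif11, the motor that separates the spindle poles, had 145, 155, 278 and 138 CPM with malonyl-CoA and 131, 133, 187 and 219 CPM in controls. Kif20b, a kinesin of late mitosis, had 92.1 CPM in malonyl-CoA 4 and 16.4 to 21.4 CPM in the other malonyl-CoA libraries, against 36.2 CPM in control 4 and 8.56 to 33.1 CPM in the other controls. Its log2 fold change was 0.71 ± 0.66, or -0.31 without malonyl-CoA 4 and 0.026 without both libraries numbered 4 (edgeR). Kif20a and Kif23, kinesins of the central spindle, averaged 80.6 ± 30.2 and 76.7 ± 30.5 CPM with malonyl-CoA, against 61.6 ± 20.0 and 59.0 ± 14.4 CPM in controls (SD, n = 4 each).

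Tpx2, which starts microtubules near chromosomes and activates Aurka, averaged 166 ± 43.1 CPM with malonyl-CoA and 145 ± 46.7 CPM in controls. Hmmr, a spindle assembly factor, averaged 58.4 ± 26.6 CPM with malonyl-CoA and 52.4 ± 20.2 CPM in controls. Prc1, the bundler of midzone microtubules, averaged 101 ± 19.2 CPM with malonyl-CoA and 89.9 ± 13.8 CPM in controls. Kif2c, a depolymerizing kinesin, averaged 54.0 ± 9.15 CPM with malonyl-CoA and 48.8 ± 9.54 CPM in controls. Nusap1, a microtubule stabilizer, was the one gene of the 9 with a fold change below 0 (-0.053 on the log2 scale), with 224 CPM in control 5 and 122 to 176 CPM in the other 7 libraries. For cytokinesis, Anln, or anillin of the contractile ring, averaged 64.1 ± 15.4 CPM with malonyl-CoA and 53.7 ± 9.19 CPM in controls. Ect2, the exchange factor that activates RhoA at the cell equator, had 133, 125.5, 121 and 123.5 CPM with malonyl-CoA and 164, 130.3, 137.5 and 139 CPM in controls. Only malonyl-CoA 1 reached above a control, control 3 (log2 fold change -0.18 ± 0.11, edgeR adjusted p = 0.525).

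Mki67, the Ki-67 protein that coats mitotic chromosomes and is a common proliferation marker (ENSMUSG00000031004, chr7:135689784-135716361, minus strand), had the largest fold change of the 40 and the widest spread. It had 58.2, 70.0, 536 and 38.4 CPM in malonyl-CoA 1, 3, 4 and 5, against 21.4, 36.5, 129 and 69.0 CPM in controls. Malonyl-CoA 4 was 9.65 times the mean of the other 3 malonyl-CoA libraries, and control 4 was 3.06 times the mean of the other 3 controls. Malonyl-CoA 1 and 5 fell below controls 4 and 5, and malonyl-CoA 3 fell below control 4. On the log2 scale the fold change of Mki67 was 1.46 ± 0.87 (edgeR adjusted p = 0.532) over all libraries. It was 0.39 without both libraries numbered 4 and -0.21 without malonyl-CoA 4. Cdk1 did not vary with it: the ratio of Mki67 to Cdk1 CPM was 2.75 in malonyl-CoA 4 and 0.148 to 0.328 in the other malonyl-CoA libraries, against 0.573 in control 4 and 0.0838 to 0.268 in the other controls.

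Top2a, the topoisomerase that untangles sister chromatids (chr11:98992943-99024189, minus strand), had 511, 586, 1013 and 449 CPM with malonyl-CoA and 298, 386, 703 and 643 CPM in controls, for a log2 fold change of 0.33 ± 0.33 (edgeR adjusted p = 0.653). It was 0.017 without malonyl-CoA 4, 0.53 without control 4, 0.15 without control 1 and 0.22 without control 3. Without both libraries numbered 4 it was 0.22. The condensin ATPases Smc2 and Smc4 were high in the same library, with 243 and 365 CPM in malonyl-CoA 4 and at most 110.5 and 126 CPM in the other malonyl-CoA libraries, against 79.7 to 167 and 58.5 to 202 CPM in controls. Ncapd2, a condensin I subunit, had 264, 271, 367 and 217 CPM with malonyl-CoA and 219.4, 219.2, 300.1 and 190.3 CPM in controls, highest in the library numbered 4 of each group and lowest in the library numbered 5. Ncapg, also of condensin I, averaged 91.2 ± 4.55 CPM with malonyl-CoA and 99.8 ± 15.9 CPM in controls, with its highest value, 123 CPM, in control 5. Of the 6 genes of chromosome structure, 5 had a log2 fold change above 0, with 2 of 6 without malonyl-CoA 4 and 3 of 6 without both libraries numbered 4. Per kilobase of exon, Ccna2 had 91.7 CPM with malonyl-CoA and 97.02 CPM in controls, Ccnb2 84.7 CPM with malonyl-CoA and 90.7 CPM in controls, and Top2a 71.0 CPM with malonyl-CoA and 56.3 CPM in controls, the 3 highest levels of the 40. Cenpf was the lowest in both groups, at 2.39 CPM per kilobase with malonyl-CoA and 1.26 in controls.

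The 40 genes differed more between libraries of a group than between the groups. The mean of their log2 deviations from each gene's average was -0.061, -0.051, 0.52 and -0.10 in malonyl-CoA 1, 3, 4 and 5, against -0.31, -0.24, 0.18 and 0.068 in controls 1, 3, 4 and 5. The libraries numbered 4 were the highest of each group. The median deviation of all genes stayed between -0.0044 and 0.013, and the pooled SD of the 40-gene mean within groups was 0.27. Malonyl-CoA 4 was the highest library for 20 of the 40 genes, against 31.4% of all genes, and the lowest for 8. Control 1 was the lowest library for 16 of the 40, against 18.6% of all genes. Summed over the 40 genes, malonyl-CoA libraries held 4692, 4693, 6930 and 4671 CPM, against 4264, 4237, 5404 and 5215 CPM in controls. Outside malonyl-CoA 4 the malonyl-CoA sums lay closer together than the control sums did.

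The libraries numbered 4 were then set side by side. Malonyl-CoA 4 was above control 4 in 27 of the 40 genes, by 4.15 times for Mki67, 3.96 times for Cenpe and 2.91 times for Cenpf, and below it in the remaining 13, Bub3 at 0.817 times being the lowest. Within malonyl-CoA, library 4 was above the other 3 libraries in 24 genes and below them in 10. Within controls, library 4 was above the other 3 in 15 genes and below them in 6. The shares of all genes for these counts were not taken. Malonyl-CoA 4 was the highest of the 8 libraries for 31.4% of all genes, so the counts are not shown to be particular to the 40. These are single libraries, so the comparison within that number has no replicate.

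Leaving out both libraries numbered 4 brought the fold changes together. With 3 libraries a group, 23 genes had a log2 fold change above 0 and 17 below, the median was 0.024, and the range narrowed to between -0.19 in Ect2 and 0.52 in Incenp. At an unadjusted p under 0.05 there were 2 genes, both higher, against 9.41% of all genes higher and 7.41% lower, and 0 passed the adjusted test, against 0.0% of all genes. These were Foxm1 (0.41 ± 0.12, edgeR unadjusted p = 0.009, adjusted p = 0.202) and Incenp (0.52 ± 0.19, edgeR unadjusted p = 0.022, adjusted p = 0.234). In Foxm1, Incenp and Kif2c the 3 malonyl-CoA libraries lay above the 3 controls, against 13.5% of all genes, and in no gene below them, against 12.9%. For Foxm1 that was 50.7 to 61.9 CPM with malonyl-CoA and 39.9 to 45.4 CPM in controls, for Incenp 65.1 to 75.3 CPM with malonyl-CoA and 35.7 to 63.4 CPM in controls, and for Kif2c 47.2 to 52.9 CPM with malonyl-CoA and 42.2 to 46.9 CPM in controls. Both counts are smaller shares of the 40 than those of all genes.

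**Figure D3:**
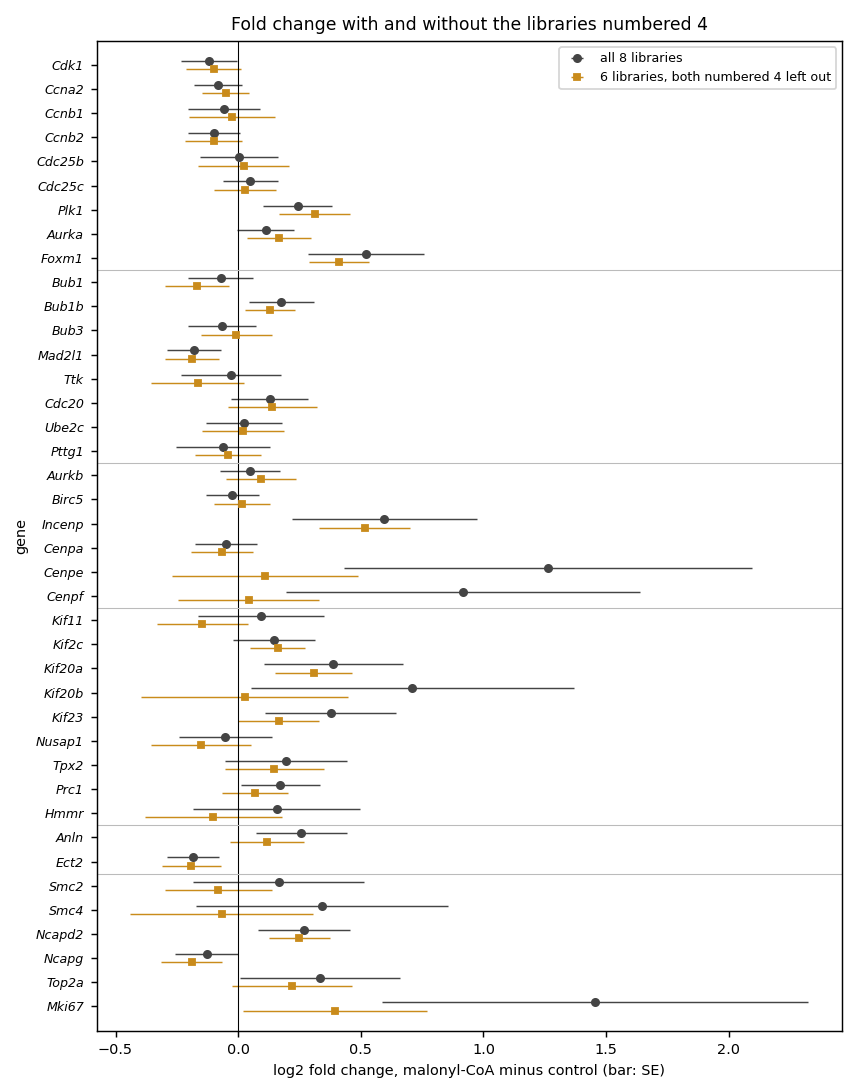
Log2 fold change (malonyl-CoA minus control) of each gene with its SE from edgeR, over all 8 libraries (circles) and over the 6 libraries left without both numbered 4 (squares), genes grouped by role down the page. The circles of Mki67 (1.46), Cenpe (1.26), Cenpf (0.92) and Kif20b (0.71) lie far to the right with long bars, and their squares lie at 0.39, 0.11, 0.043 and 0.026.

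The genes that ranged widely between libraries tended to have longer transcripts. The highest library was more than 2 times the lowest in 14 of the 40 genes, against 38.5% of all genes: Mki67 (25.1 times), Cenpe (22.6), Cenpf (12.2), Kif20b (10.8), Smc4 (6.23), Incenp (4.66), Top2a (3.40), Smc2 (3.05), Kif23 (2.80), Hmmr (2.80), Kif20a (2.79), Foxm1 (2.61), Tpx2 (2.41) and Kif11 (2.11). The median longest transcript of these 14 was 4736 bases, against 2980 bases for the 12 genes between 1.5 and 2 times and 3378 bases for the 14 genes under 1.5 times. Over the 40 genes the Spearman correlation of range with transcript length was 0.541 and with GC content -0.194, and over 10288 genes with a mean log2 CPM above 2 it was 0.026 and 0.186. The points share the 8 libraries, and the values are descriptions. Several genes did not follow this relation. Mad2l1 (7557 bases), Cdk1 (4375 bases) and Ect2 (4086 bases) had ranges of only 1.38, 1.33 and 1.36 times. Kif23 (3398 bases) and Incenp (3449 bases), with shorter transcripts, ranged 2.80 and 4.66 times.

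Within single libraries, the deviations of the 40 genes were set against transcript length and GC content, as Spearman correlations over the 40 genes and over the 10288 genes. With length, the values over the 40 and over all genes were -0.586 and -0.178 in malonyl-CoA 1, 0.018 and 0.22 in malonyl-CoA 3, 0.518 and 0.452 in malonyl-CoA 4, and -0.711 and -0.596 in malonyl-CoA 5. In controls 1, 3, 4 and 5 they were -0.566 and -0.336, -0.521 and -0.365, 0.473 and 0.311, and 0.306 and 0.034. With GC content, the largest values were 0.775 over the 40 and 0.517 over all genes in malonyl-CoA 1, and -0.741 and -0.736 in control 5. The points share library, depth and base composition. Corrected for GC content the log2 fold change of Mki67 was 1.45, and corrected for GC content and length it was 1.04.

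**Figure D4:**
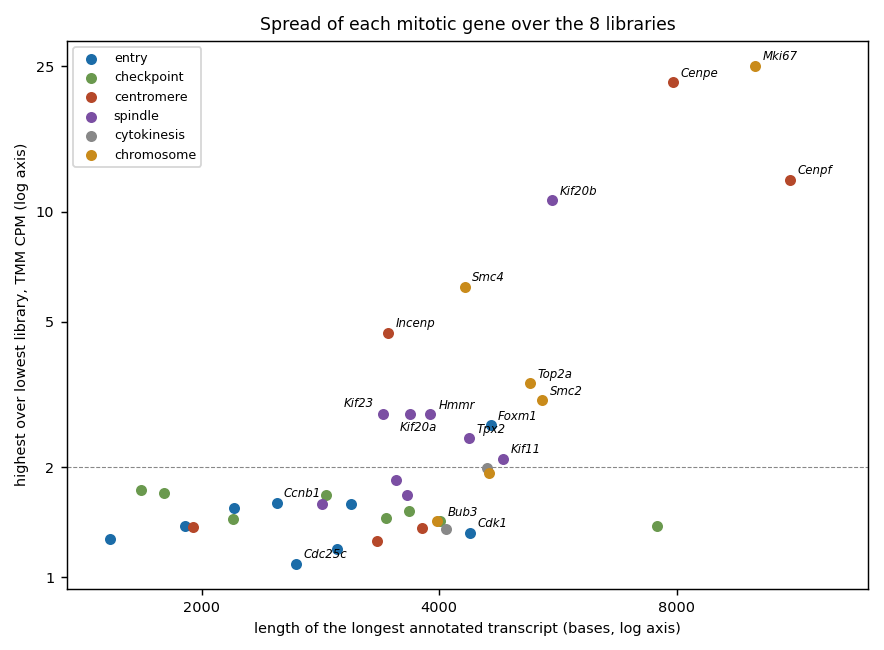
Highest over lowest library in TMM CPM (log axis) against the longest annotated transcript in bases (log axis) for the 40 genes, coloured by role. The dashed line marks a ratio of 2; Mki67, Cenpe and Cenpf sit at the upper right (25.1, 22.6 and 12.2 times), and all the checkpoint genes and all entry genes but Foxm1 (2.61 times) lie below the line.

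Other genes of mitosis and the cell cycle were read in the same way, and in none of the 8 lists did a gene pass the adjusted test (edgeR, 0.0% of all genes in each direction). Of 17 tested cyclin, CDK control and kinase genes besides the 40, 6 had a log2 fold change above 0 and 11 below, the median being -0.027, and Ccna1, Ccnb3 and Aurkc did not reach the count filter. Wee1, the kinase that restrains Cdk1, averaged 66.1 ± 2.14 CPM with malonyl-CoA and 79.1 ± 10.1 CPM in controls (log2 fold change -0.26). Gtse1, a microtubule-binding protein of G2, averaged 35.2 ± 5.72 CPM with malonyl-CoA and 26.7 ± 6.25 CPM in controls (0.40). Pbk, a mitotic kinase, averaged 115 ± 19.8 CPM with malonyl-CoA and 142 ± 17.2 CPM in controls (-0.30). Their adjusted p was 0.515 each by edgeR.

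The anaphase-promoting complex and its regulators divided evenly, 10 above and 10 below 0, with a median of -0.0072. Mad1l1, the anchor of Mad2 at kinetochores, averaged 27.5 ± 11.5 CPM with malonyl-CoA and 16.9 ± 7.93 CPM in controls, and the complex subunits Cdc26 and Anapc10 had log2 fold changes of -0.23 and -0.33. Of 37 kinetochore and centromere genes 14 were above 0 and 23 below, with a median of -0.049. Without malonyl-CoA 4 it was 6 above and 31 below, with a median of -0.16. That fit keeps control 4, and 46.4% of all genes were above 0 in it, with a median of -0.019. The other lists were not read without both libraries numbered 4. Spc25, a subunit of the Ndc80 complex, averaged 61.8 ± 5.51 CPM with malonyl-CoA and 77.4 ± 12.9 CPM in controls (-0.32 ± 0.14, edgeR unadjusted p = 0.040, adjusted p = 0.515), and Cenpp and Ska2 had values of -0.44 and -0.32.

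Of the 30 other spindle and cytokinesis genes, 22 were above 0, with a median of 0.17. Malonyl-CoA 4 was the highest library for 20 of the 30, against 31.4% of all genes. Without malonyl-CoA 4, 14 were above 0 and 16 below, with a median of -0.064. That fit keeps control 4, here and for the condensin and cohesin genes below, and 46.4% of all genes were above 0 in it. Cit, the citron kinase of the midbody, had 63.0 CPM in malonyl-CoA 4 and 11.6 to 15.9 CPM in the other malonyl-CoA libraries, against 21.5 CPM in control 4 and 4.62 to 11.9 CPM in the other controls. Kif22, a chromosome-arm kinesin, averaged 75.8 ± 13.7 CPM with malonyl-CoA and 59.0 ± 9.56 CPM in controls (0.36 ± 0.16), and Depdc1a had a log2 fold change of -0.28. Of 16 condensin and cohesin genes 11 were above 0, with a median of 0.071, and without malonyl-CoA 4 it was 3, with a median of -0.090. Stag2, a cohesin subunit, was the only named gene with all 4 malonyl-CoA libraries below all controls, against 2.93% of all genes. Stag2 was named for its small p in these same data, which favours such a split. It had 338 to 360 CPM with malonyl-CoA and 387 to 467 CPM in controls (-0.27 ± 0.10, edgeR adjusted p = 0.502). Espl1, the separase that opens cohesin, had a log2 fold change of 0.43, and Esco2, which acetylates cohesin, of -0.27.

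The DREAM and E2F repressor genes gave 7 above and 8 below 0, with a median of -0.014, including E2f4 (0.43 ± 0.17), Rbbp4 (-0.28) and Lin54 (0.24). S phase genes gave 24 above and 16 below 0, with a median of 0.028, including Rfc4, a clamp loader subunit (-0.31 ± 0.12), Ccne1, or cyclin E (0.33 ± 0.14), and Chaf1b, a histone chaperone (0.28 ± 0.13). Of 14 tested CDK inhibitor and G1 genes 10 were above 0, with a median of 0.067, and Cdkn2a and Cdkn2b did not reach the count filter. Gadd45b, a stress-induced gene that can inhibit Cdk1, averaged 14.5 ± 3.17 CPM with malonyl-CoA and 9.56 ± 0.855 CPM in controls. For Gadd45b every malonyl-CoA library (12.3 to 19.1 CPM) was above every control (8.44 to 10.5 CPM), against 3.21% of all genes. Gadd45b was named for its small p in these same data, which favours such a split. Its log2 fold change was 0.61 ± 0.17 (edgeR unadjusted p = 0.0063, adjusted p = 0.391). Gadd45a and Cdkn1c, or p57, had log2 fold changes of 0.33 and 0.53, with overlapping groups.

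Counting could blur some of these values. Exons of 10 of the 40 genes overlap a gene on the opposite strand, such as Kif20a with Cdc23, Ccna2 with Exosc9 and Nusap1 with Oip5, and the strand setting of the counter is not given in the sources used here. Exons of 3 genes, Foxm1, Ncapd2 and Top2a, overlap a gene on the same strand.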

How the data were processed

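Each of the 8 libraries was made by a stranded protocol from 350 ng of RNA, as the labels state. The deposited values are raw counts of reads by Ensembl identifier, in a file per library. The authors' processing used cutadapt 1.8, STAR 2.5.2b and HTSeq 0.6.1 on GRCm38, per the submitters' processing notes; neither a strand setting nor an annotation release is given there. Reads in no gene (1.11% to 2.94%), reads placed at several positions (38.2% to 51.1%) and ambiguous ones (0.715% to 0.891%) entered neither library sizes nor tests.

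Of 48709 identifiers 48349 matched GENCODE M21, which gave symbols, coordinates and transcript lengths. Counts were tested with edgeR 4.0.16 in R 4.3.3: filterByExpr at its defaults (10 counts, 15 in total), TMM, a robust glmQLFit without the legacy option, the two-sided glmQLFTest, and Benjamini-Hochberg adjustment over 12696 genes at 0.05. An SE is the size of the log2 fold change divided by the root of F. Group levels are means ± SD of CPM with TMM factors over 4 libraries, and deviations use log2 CPM with a prior count of 2. Alternatives were RLE factors, library size alone, other filters, limma 3.58.1 (voom), DESeq2 1.42.0, a replicate block, loess corrections (span 0.5) and libraries left out. The fit was tried on simulated counts with planted changes and no library standing apart. That trial does not show what the fit could detect in these libraries.

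The 40 genes and the other lists were chosen with earlier results of these data known. All 40 are named. Values for every library are given for the 8 of them with the smallest p and for Mki67, Top2a, Cdk1, Ccnb1, Plk1, Aurka, Aurkb, Birc5, Foxm1 and Bub1, and up to 3 genes with the smallest p are named from each other list. The wide-ranging genes Kif11, Cenpf, Kif20b, Smc2, Smc4 and Cit were given in more detail after their values were seen. Depth ran from 17492085 to 22079844 counts.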

Additional observations from a re-analysis of the deposited data

Results flagged for a closer look

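Of 84 groups of 4 libraries examined by Dixon's ratio (the gap between the extreme library and its nearest neighbour, over the range of the group), 16 passed the 95% critical value. Chance gives about 1 in 20 for a single group. These groups share the same 8 libraries and are not independent, so the count cannot be held against that rate. In 14 of the 16 malonyl-CoA 4 was the high library, which was also the highest of the 8 for 31.4% of all genes.

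Among malonyl-CoA libraries the ratio was 0.937 for Mki67, 0.944 for Cenpe, 0.962 for Cenpf, 0.935 for Kif20b, 0.937 for Kif23, 0.877 for Kif11, 0.857 for Kif20a, 0.895 for Tpx2, 0.899 for Incenp, 0.906 for Ttk, 0.879 for Smc2 and 0.897 for Smc4. Among the spindle motors Kif2c, with 67.2 CPM in malonyl-CoA 4 and 47.2 to 52.9 CPM in the other 3, did not pass. The mean deviation of the 40 genes had a ratio of 0.92 in malonyl-CoA, and the share of reads in no gene 0.913, again with malonyl-CoA 4 high. No group passed with malonyl-CoA 1, 3 or 5 as the extreme library.

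Among controls, control 5 was high for the checkpoint kinase Bub1 (0.833) and for the ubiquitin-conjugating enzyme Ube2c (0.904).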

How the results depend on the processing

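The call that 0 of the 40 genes passed the adjusted test held under every alternative run, including RLE factors, no low-count filter, a filter of 1 CPM in 4 libraries, DESeq2, limma-voom and each library left out. Over all genes edgeR called 0, against 1 without the low-count filter and 82 with DESeq2. At an unadjusted p under 0.05 the count of the 40 was 1 without the filter (Foxm1), against 4.35% of all genes higher and 2.84% lower. It was 1 with DESeq2 (Foxm1), against 3.93% higher and 2.52% lower. Without both libraries numbered 4 it was 2, against 9.41% higher and 7.41% lower. Leaving out 1 library at a time gave 0 to 4, the 4 being Foxm1, Plk1, Incenp and Ncapd2 without control 4. All 4 were higher, against 10.4% of all genes higher and 7.06% lower in that fit, so the count is near the share of all genes.

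The numbers shared between groups paired the libraries only in part. The correlation, across genes, of deviations between same-numbered libraries was 0.435, 0.428, 0.754 and 0.052 for numbers 1, 3, 4 and 5. It was above 0.1 in 3 of 4 pairs. The main fit did not take the numbers as pairs because the labels do not say that a number pairs libraries. For malonyl-CoA 1, 3 and 4 the same-numbered control had the highest correlation of the 4 controls. For malonyl-CoA 1, control 3 was close behind, at 0.405. Malonyl-CoA 5 correlated better with control 1 (0.418) than with control 5. The main fit leaves any effect shared by number in the spread between libraries. A fit with this number as a replicate block called 172 genes and 0 of the 40. Under the block 5 of the 40 had an unadjusted p under 0.05 (Foxm1, Incenp, Ncapd2, Kif20a and Mad2l1), against 15% of all genes higher and 10.5% lower, with a smallest adjusted p of 0.068 for Foxm1.

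Fold changes of several genes changed sign with the setting, and none of these values was past the test. On the log2 scale, the values that turned were, with library size alone, Ttk 0.018 and Birc5 0.014. With a correction for GC content they were Cdc25b -0.14, Bub1 0.053, Ttk 0.072, Cdc20 -0.059, Ube2c -0.20, Aurkb -0.065, Nusap1 0.070 and Ncapg 0.078, and with GC content and length Ccnb1 0.034, Cdc25b -0.12, Bub1 0.058, Ttk 0.10, Ube2c -0.16, Pttg1 0.057, Aurkb -0.00068, Nusap1 0.068 and Ncapg 0.055. Without both libraries numbered 4 they were Birc5 0.015, Kif11 -0.15, Hmmr -0.10, Smc2 -0.081 and Smc4 -0.068. Without malonyl-CoA 4 and control 5, chosen after seeing the data, as were the GC and length correction and the legacy fit, they were Cdc25b -0.16, Bub1 0.030, Cdc20 -0.052, Pttg1 0.12, Aurkb -0.0034, Birc5 0.031, Cenpe -0.30, Cenpf -0.38, Kif11 -0.047, Kif20b -0.064, Nusap1 0.087, Smc2 -0.14, Smc4 -0.069 and Mki67 -0.17, with 20 genes above and 20 below 0. Library size alone moved the median of all genes to 0.065, against 0.023 with TMM, and GC correction to -0.022. The cause of these turns was not tested.

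Leaving out 1 library at a time gave log2 fold changes of Ccnb1 -0.17 to 0.049, Cdc25b -0.13 to 0.067, Bub1 -0.13 to 0.063, Bub3 -0.15 to 0.0026, Ttk -0.20 to 0.13, Cdc20 -0.012 to 0.20, Ube2c -0.076 to 0.16, Pttg1 -0.18 to 0.065, Aurkb -0.031 to 0.11, Birc5 -0.098 to 0.016 and Cenpa -0.11 to 0.037. In the same runs the range was Cenpe -0.37 to 1.73, Cenpf -0.42 to 1.38, Kif11 -0.21 to 0.25, Kif20b -0.31 to 1.04, Nusap1 -0.16 to 0.17, Tpx2 -0.0099 to 0.35, Hmmr -0.21 to 0.38, Smc2 -0.27 to 0.35, Smc4 -0.32 to 0.59 and Mki67 -0.21 to 2.05. Malonyl-CoA 4 turned the most genes when left out, 13 of the 40, among them Mki67, Cenpe, Cenpf and Kif20b, and the median of the 40 was then -0.0078 with 19 above 0. Control 5 turned 6 and control 1 turned 5, and each other library turned 2 or 3.

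The fewest counts behind a value of the 40 were 88, so counting error was small beside the spread between libraries for the wide-ranging genes.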
